A study of Mus musculus with 6 samples.

Results

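The 9 genes described here, C1qa, C1qb, C1qc, C1ra, C2, C4b, C3, C3ar1 and Serping1, belong to the classical complement cascade or act on it, and they were chosen by name for that role, with earlier results of these data known. They are 9 of the 16703 genes in a table of RNA levels of the mouse hippocampus. Each library was made from polyA-selected RNA of 1 mouse, and the mice were 3 young (3 months) and 3 aged (20 months) males of the inbred strain C57BL/6, without genetic modification or treatment in either group. The study asked how N6-methyladenosine (m6A), a chemical mark on RNA, differs between these ages in the hippocampus, a region used in learning and memory. It measured RNA levels as well, and those are the values described here. A qPCR assay guided the choice of the replicates, by a criterion that the methods do not name. C4b, the microglial gene Trem2 and the choroid plexus marker Cldn2 were among the genes the study measured by qRT-PCR. The p-values of these genes, and of genes that vary with them, thus come from mice that may have been selected on them. For the young mice the methods state 12 weeks.

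Complement is a set of secreted proteins that tag and lyse targets. In the classical pathway, C1q binds a target, the attached proteases C1r and C1s cut C4 and C2, and the resulting enzyme cuts C3, whose fragments coat the target and signal to cells through receptors such as the C3a receptor. In the mouse brain C1q is made mainly by microglia, the resident macrophages, while C4 and C3 are known from astrocytes and other glia, and C1q and C3 take part in the removal of synapses during development.

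Values are CPM, counts scaled to the library total, undone from the log2 CPM that the authors deposited. They come from counts from which the authors had removed 1 factor of unwanted variation, and 1 CPM corresponds to 15.2 to 17.5 of these adjusted counts. The depth of sequencing is not known from them. The removed factor runs mostly between aged mice 2 and 3, with 80.8% of the direction between them, and these 2 libraries differ by less than counting noise (a chi-square per gene of 0.562, against 1.42 to 2.96 for the other pairs). Both were retained as separate samples. The removed direction is a term of the model, and it is hardly related to age over the 6 libraries (r = -0.021) but is once aged mouse 3 is left out (r = -0.75), so results without that mouse are given with and without the term. The fits without the term were added after the data had been seen. Ranges and SDs below describe the adjusted values and understate the spread between mice. Markers of neurons (8 of 8) and of microglia (14 of 14) were measured in each library.

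The transcripts divide by abundance into an upper and a lower set. Per kilobase of the longest annotated coding transcript, the young mice had 40.3 CPM of C1qa, 36.2 of C1qb and 27.6 of C1qc, then 8.05 of C4b and 5.13 of Serping1, which encodes the C1 inhibitor. The proteases, C3 and its receptor were lower, with 0.577 CPM per kilobase of C1ra, 0.412 of C2, 0.377 of C3 and 0.344 of C3ar1. Among neighbours in that young order, the ranges over 3 mice overlapped for C1qa with C1qb, and for each step from C1ra down to C3ar1. In the aged mice the order was C1qa (63.0), C1qb (55.2), C1qc (39.7), C4b (32.9), Serping1 (5.17), C3 (1.45), C1ra (0.710), C3ar1 (0.591) and C2 (0.377). In the aged order only C1ra and C3ar1 overlapped with each other, so C3 stood above the low set in the aged mice and within it in the young. Over all 16703 genes C4b ranked 2042 by mean CPM and C2 ranked 15365.

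The aged mice had more RNA of C4b, C3 and each of the C1q chains, and no member was lower. Of the 9 members, 5 rose past an FDR of 0.05 (Benjamini-Hochberg adjusted p over all 16703 genes, from limma), against 1.2% of all genes higher, and 0 fell, against 0.784% of all genes lower. At an unadjusted p under 0.05 the fit gave 6 members higher, against 8% of all genes, and 0 lower. In either direction 2485 of the 16703 genes were at that p. These values over all genes also stand beside the counts of each list below. With a 1.5-fold change required as well, 4 members were higher, against 0.377% of all genes, and 3 or 4 with any 1 library left out. Without a variance trend in limma, 0 genes of the table passed the FDR threshold. In that fit 6 members were at an unadjusted p under 0.05, against 1881 of the 16703 genes. In 6 members every aged mouse was above every young mouse, against 14.5% of all genes. The median log2 fold change was 0.61 over the members and 0.00 over all genes.

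**Figure D1:**
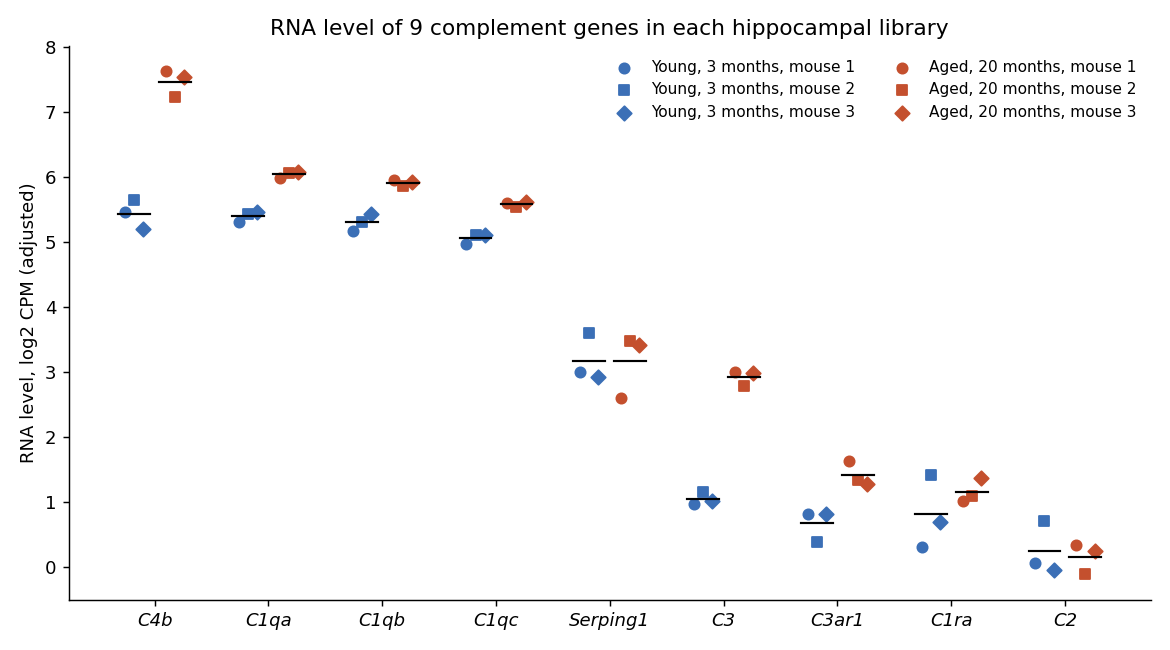
RNA level (log2 CPM of the adjusted counts) of each of the 9 members in each of the 6 libraries, ordered by mean level, with 1 point per mouse and a bar at the mean of each group. The aged points of C4b, C3, C1qa, C1qb, C1qc and C3ar1 lie above the young ones, and those of Serping1, C1ra and C2 overlap with them.

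The promoters of C1qb, C1qc and C3 are shown because these genes rose and had a sequence in the reference used. They are the 250 bases before the annotated start, from RefSeq in the build GRCm38.p6 (the study's values use the build mm39), written in the direction of transcription, for C1qb (chr4:136886201-136886450, minus strand), C1qc (chr4:136892915-136893164, minus strand) and C3 (chr17:57228137-57228386, minus strand). Capitals mark matches, on either strand, to the PU.1 core GAGGAA, the C/EBP form TTGCNNNA and the NF-kB form, sites read by factors of macrophages and of inflammation.
C1qb: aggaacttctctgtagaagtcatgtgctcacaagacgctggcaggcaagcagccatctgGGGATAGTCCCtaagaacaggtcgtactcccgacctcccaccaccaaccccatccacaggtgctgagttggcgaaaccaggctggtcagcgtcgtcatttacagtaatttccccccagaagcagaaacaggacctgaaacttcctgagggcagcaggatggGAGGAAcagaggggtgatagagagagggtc
C1qc: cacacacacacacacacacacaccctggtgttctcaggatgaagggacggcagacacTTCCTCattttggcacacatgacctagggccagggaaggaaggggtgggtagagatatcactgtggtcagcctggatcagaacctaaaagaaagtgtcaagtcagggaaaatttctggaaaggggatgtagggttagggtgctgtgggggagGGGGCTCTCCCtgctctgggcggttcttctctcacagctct
C3: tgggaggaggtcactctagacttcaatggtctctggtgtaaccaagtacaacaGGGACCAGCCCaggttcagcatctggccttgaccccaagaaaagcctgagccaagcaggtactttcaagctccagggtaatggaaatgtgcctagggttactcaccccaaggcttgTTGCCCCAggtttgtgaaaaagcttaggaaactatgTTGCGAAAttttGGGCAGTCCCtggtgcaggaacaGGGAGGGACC

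C1qb had 1 match to the PU.1 core, 30 to 25 bases before the start, and C1qc had 1 on the other strand, 193 to 188 bases before it, while C3 had none. C3 instead had 2 matches to the C/EBP form, 81 to 74 and 45 to 38 bases before the start. Overlapping matches to the NF-kB form were present in C1qb, C1qc and C3. Neither the interferon response core GAAANNGAA nor the STAT form TTCNNNGAA was found in these windows or in those of C1ra and C3ar1, the other members with a sequence. Over 32851 promoters of the same length, 23.3% held the PU.1 core, 29.3% the C/EBP form, 45.8% the NF-kB form, 7.13% the interferon response core and 7.02% the STAT form. These matches are letters in a window and say nothing of binding.

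C1qa, C1qb and C1qc (ENSMUSG00000036887.6, ENSMUSG00000036905.9 and ENSMUSG00000036896.6, all on chromosome 4) encode the A, B and C chains that assemble into C1q, the recognition unit of the pathway. C1qa was at 39.4, 42.7 and 43.8 CPM in young mice 1 to 3 and at 63.2, 66.1 and 67.2 CPM in aged mice 1 to 3. C1qb was at 35.7, 39.5 and 42.9 CPM in the young and at 61.9, 57.6 and 60.6 CPM in the aged mice. C1qc was at 31.1, 34.1 and 34.4 CPM in the young and at 48.2, 46.4 and 48.5 CPM in the aged mice. For each chain the lowest aged mouse was above the highest young one. The adjusted values of the 3 aged mice lay close together, and they understate the spread between mice.

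The rise was 1.56-fold for C1qa (log2 fold change 0.64, standard error 0.065, adjusted p = 7.8e-05), and its mean moved from 42.0 ± 2.30 to 65.5 ± 2.07 CPM (SD, n = 3 per group). It was 1.53-fold for C1qb (0.61, standard error 0.073, adjusted p = 3.5e-04), with means of 39.4 ± 3.59 and 60.0 ± 2.24 CPM. It was 1.44-fold for C1qc (0.52, standard error 0.070, adjusted p = 8.5e-04), with means of 33.2 ± 1.83 and 47.7 ± 1.11 CPM. The calls of C1qa and C1qb remained with any 1 library left out, and that of C1qc was lost without aged mouse 3 when the removed direction was in the model (0.47 on the log2 scale, adjusted p = 0.097) and held without that term (0.51, adjusted p = 0.0033).

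The chains kept similar proportions in both ages. Of the summed CPM of the 3 chains, C1qa made up 36.2% to 38.9%, C1qb 33.6% to 35.7% and C1qc 27.3% to 29.3% over the 6 libraries. The log2 ratio of C1qb to C1qa was -0.09 ± 0.057 in the young and -0.13 ± 0.088 in the aged mice (SD, n = 3 per group), and the groups overlapped. The log2 ratio of C1qc to C1qa was -0.34 ± 0.011 in the young and -0.46 ± 0.060 in the aged mice, and here each aged mouse was below each young one. These ratios do not depend on library scaling and were not tested.

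C1q rose together with markers of microglia. Of 14 microglia markers, 5 rose and 0 fell, against 1.2% and 0.784% of all genes. In 11 of them every aged mouse was above every young one, against 14.5% of all genes. The median log2 fold change of the list was 0.32. The calls were Trem2 (log2 fold change 0.73), Tyrobp (0.59), Cx3cr1 (0.44), Tmem119 (0.36) and Sall1 (0.35), and 0 to 4 markers were called with any 1 library left out. Without aged mouse 3 the number was 0 with the removed direction in the model and 3 without it. The mean level of the list was 4.23 to 4.27 log2 CPM in the young and 4.53 to 4.62 log2 CPM in the aged mice. In bulk tissue, more cells of a type and more RNA per cell cannot be told apart.

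Set against Cx3cr1, P2ry12, Tmem119 and Csf1r, C1q was also higher relative to these markers in the aged mice. The mean log2 CPM of the C1q chains minus the mean of the 4 markers was -0.24, -0.06 and -0.04 in young mice 1 to 3, and 0.16, 0.18 and 0.22 in aged mice 1 to 3. From young to aged, the mean of the C1q chains went up by 0.59 and that of the 4 markers by 0.29, on the log2 scale. The difference was thus 0.30 higher in the aged mice, with no overlap between the groups, and was not tested. The share of the C1q rise that goes with the markers was not tested either. The difference depends on the markers used. The 4 markers had fitted log2 fold changes of 0.12 (Csf1r) to 0.44 (Cx3cr1). The largest of the whole list were those of Trem2 (0.73) and Tyrobp (0.59), beside 0.59 for C1q. The border macrophage markers gave 0 calls among 6 measured of 8 listed (limma, 0 at an unadjusted p under 0.05). Their log2 fold changes went both ways, from -0.92 (Lyve1) to 0.37, with 3 of the 6 above 0.

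**Figure D2:**
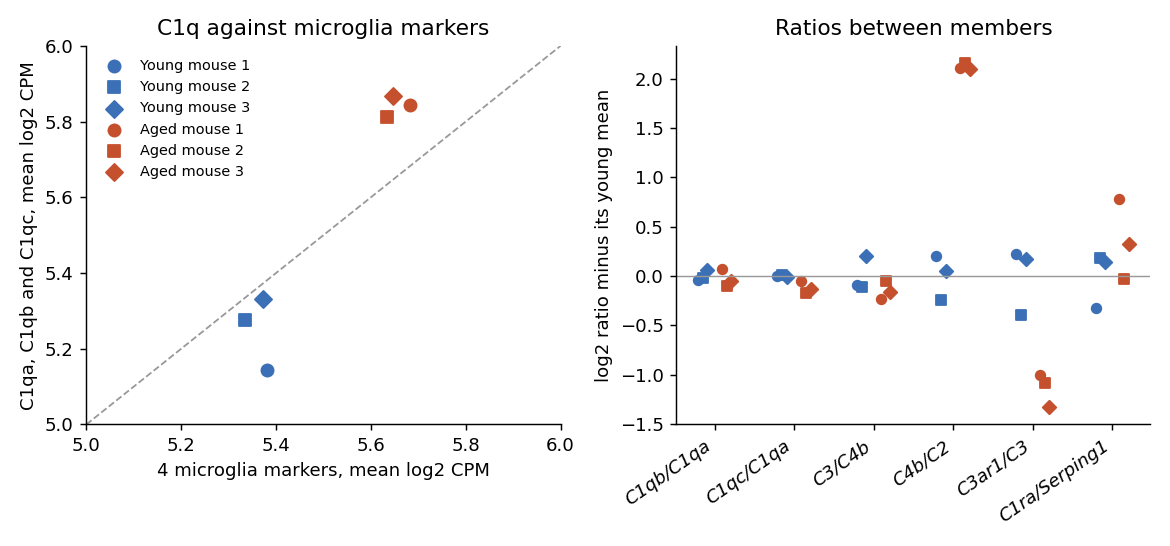
Left, mean log2 CPM of C1qa, C1qb and C1qc against that of 4 microglia markers, 1 point per library, with equality as a dashed line. Right, log2 ratios between members in each library after subtracting the young mean of each ratio. The aged points lie above equality and the young ones below it, and the ratio of C4b to C2 is higher in the aged mice by 2.12 and that of C3ar1 to C3 lower by 1.14.

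Neither protease among the members passed the test. C1ra (ENSMUSG00000055172.11, chromosome 6) encodes the C1r protease, which starts the cascade once C1q has bound. It was at 1.12, 2.55 and 1.49 CPM in young mice 1 to 3 and at 1.89, 1.99 and 2.46 CPM in aged mice 1 to 3, with young mouse 2 the highest of all. Its log2 fold change was 0.35 with a 95% interval of -0.29 to 0.99 (adjusted p = 0.65). Without aged mouse 3 it was -0.49 with the removed direction in the model and 0.24 without it. C2 (ENSMUSG00000024371.15, chromosome 17), which supplies the protease of the C3 convertase, was at 0.919, 1.502 and 0.845 CPM in the young and at 1.13, 0.798 and 1.06 CPM in the aged mice. Its groups overlapped, with a log2 fold change of -0.09 and a 95% interval of -0.80 to 0.63 (adjusted p = 0.94). These genes rest on 13 to 42 adjusted counts per library, and differences inside the intervals were not detectable at that level.

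C1ra has a close copy, C1rb, and C1s1, the partner protease of C1r, has C1s2. The methods state that uniquely mapped reads alone were kept, so reads shared by copies would be lost in counting. C1s1 was at 0.722, 1.44 and 0.715 CPM in the young and at 1.26, 1.99 and 2.23 CPM in the aged mice. Its log2 fold change was 0.88 (standard error 0.34, adjusted p = 0.23). Without aged mouse 3 it was -0.16 with the removed direction in the model and 0.73 without it. It did not pass the test, and young mouse 2 lay above aged mouse 1.

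Serping1 (ENSMUSG00000023224.13, chromosome 2) encodes the C1 inhibitor, which takes C1r and C1s off C1q. It was at 7.87, 11.95 and 7.41 CPM in young mice 1 to 3 and at 5.91, 11.0 and 10.5 CPM in aged mice 1 to 3. The highest value was that of young mouse 2 and the lowest that of aged mouse 1, so the spread within each group exceeded the difference between the means. The log2 fold change was -0.01 with a 95% interval of -0.48 to 0.46 (adjusted p = 0.99). Without aged mouse 3 it was -0.93 with the removed direction in the model and -0.13 without it, and without aged mouse 1 it was 0.30, none of them past the threshold. The 12 fibroblast and mural cell markers had their highest mean in young mouse 2 (4.14 log2 CPM) and their lowest in aged mouse 1 (3.54 log2 CPM), as Serping1 did, and their part in its values was not tested. Of these markers 2 were lower in the aged mice, Col3a1 (log2 fold change -1.41) and Col1a2 (-0.83), and 0 were higher, with 0 to 4 called lower when a library was left out.

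C4b had the smallest p of all 16703 genes and the fourth largest fitted log2 fold change. C4b (ENSMUSG00000073418.5, chromosome 17) encodes C4, the substrate of C1s that binds covalently to the target. It was at 43.6, 49.96 and 36.4 CPM in young mice 1 to 3 and at 197, 150 and 184 CPM in aged mice 1 to 3. The lowest aged value was 150 CPM and the highest young one 49.96 CPM. The rise was 4.09-fold (log2 fold change 2.03, standard error 0.103, 95% interval 1.81 to 2.25, adjusted p = 4.7e-08). With any 1 library left out it was 1.91 to 2.20 on the log2 scale, and the highest adjusted p was 7.3e-05.

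C4a, a near-identical copy of C4b, was at 2.89, 2.29 and 1.95 CPM in the young and at 2.45, 1.71 and 1.88 CPM in the aged mice (log2 fold change -0.22, adjusted p = 0.75). Reads that the copies share cannot be placed by these values. The genes beside C4b and C2 in the MHC region, from a list of 12 with 10 measured, gave 0 calls (limma, 3 at an unadjusted p under 0.05). The smallest p among them belonged to Skiv2l (log2 fold change -0.20, adjusted p = 0.12) and Tnxb, a gene of the extracellular matrix (0.30, adjusted p = 0.18). The genes beside the C1q cluster gave 0 calls among 7 measured of 9 listed (3 at an unadjusted p under 0.05), with a median log2 fold change of -0.14, and the smallest p among them belonged to Luzp1 (-0.16) and Epha8 (-0.54).

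C3 (ENSMUSG00000024164.16, chromosome 17) encodes the protein on which the complement pathways meet. It was at 1.84, 2.09 and 1.88 CPM in young mice 1 to 3 and at 7.86, 6.78 and 7.75 CPM in aged mice 1 to 3. The groups lay far apart, with coefficients of variation of 6.94% in the young and 7.94% in the aged mice. These describe adjusted values that rest on few counts in the young, and they understate the spread between mice. The rise was 3.68-fold (log2 fold change 1.88, standard error 0.187, 95% interval 1.48 to 2.28, adjusted p = 7.8e-05), from 28 to 32 adjusted counts in the young to 119 to 132 in the aged mice. With any 1 library left out, it was 1.81 to 1.97 on the log2 scale.

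C4b and C3 held a similar ratio to each other at both ages. The log2 ratio of C3 to C4b was -4.48, -4.50 and -4.19 in young mice 1 to 3 and -4.63, -4.44 and -4.55 in aged mice 1 to 3, with overlapping groups. The log2 ratio of C4b to C2, its partner in the convertase, was 5.19 ± 0.226 in the young and 7.31 ± 0.033 in the aged mice (SD, n = 3 per group). C4b therefore exceeded C2 by a wider margin in each aged mouse than in any young one.

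C3ar1 (ENSMUSG00000040552.9, chromosome 6) encodes the receptor for the fragment C3a and is found on microglia and other myeloid cells. It was at 1.64, 1.18 and 1.62 CPM in young mice 1 to 3 and at 2.96, 2.39 and 2.29 CPM in aged mice 1 to 3, so the groups did not overlap. Its log2 fold change was 0.74 (standard error 0.26, 95% interval 0.19 to 1.29, unadjusted p = 0.011), and it did not pass the threshold over all genes (adjusted p = 0.18). With a library left out the value ran from 0.58 to 1.24, the latter without aged mouse 3, where leaving the removed direction out of the model gave 0.81. The log2 ratio of C3ar1 to C3 was -0.37 ± 0.34 in the young and -1.51 ± 0.17 in the aged mice, since the ligand gene was the more changed of the pair.

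**Figure D3:**
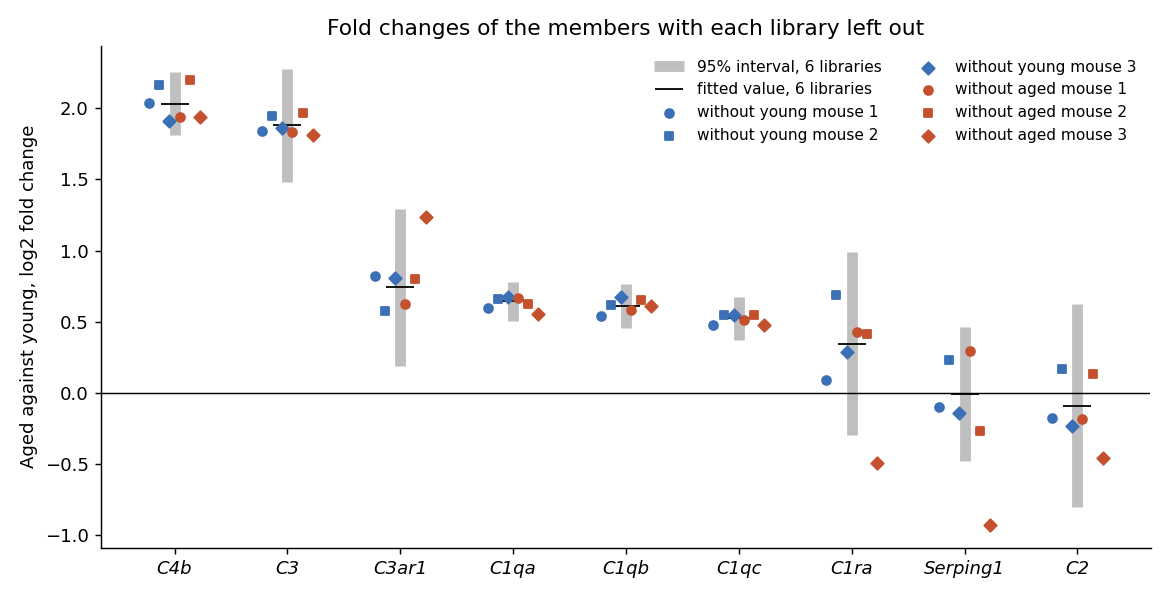
Log2 fold change of aged against young mice for each member, with the value and 95% interval from the 6 libraries (line and grey bar) and the value with each library left out (points). C4b, C3, C3ar1 and the C1q chains stay above 0 throughout, and C1ra, Serping1 and C2 have points on both sides of it. The only point of C1ra below 0 is the one without aged mouse 3, where the removed direction in the model is related to age (0.24 without that term).

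Few of the other complement genes passed the test. Of 54 further complement genes listed, 32 were measured, of which 0 rose and 1 fell, against 1.2% and 0.784% of all genes (limma, 4 higher and 5 lower at an unadjusted p under 0.05). Their median log2 fold change was -0.03, beside 0.61 for the members. With the replicate number as a block, 1 of them rose, Itgb2.

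Among 7 measured genes of classical and lectin initiation, 0 were called, with 3 at an unadjusted p under 0.05. Masp1, a protease of the lectin pathway, was at 11.7, 12.2 and 12.8 CPM in the young and at 9.68, 9.97 and 9.86 CPM in the aged mice (log2 fold change -0.31, adjusted p = 0.21). Masp2, which cuts C4 and C2 in that pathway, had a log2 fold change of -0.53 (adjusted p = 0.34). Colec11 and Colec12, collectins that recognise sugars, had 0.86 (adjusted p = 0.32) and -0.17 (adjusted p = 0.63), and Colec12 had the highest mean CPM of the list. Cfp, which encodes properdin, was the 1 gene given here for the alternative pathway, with a log2 fold change of -0.22 (adjusted p = 0.48). C8g was the 1 measured gene of the terminal pathway, with a log2 fold change of -0.50 (adjusted p = 0.45).

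Among 9 measured receptors, Calr was lower and 0 were higher. Calr encodes calreticulin, chiefly a chaperone of the endoplasmic reticulum that also binds C1q at the cell surface. It was at 337, 360 and 327 CPM in the young and at 288, 300.3 and 304 CPM in the aged mice (log2 fold change -0.20, standard error 0.046, adjusted p = 0.040). The call was lost in 4 of the 6 fits with a library left out, namely without young mouse 1 (adjusted p = 0.16), young mouse 2 (0.11), aged mouse 1 (0.19) or aged mouse 2 (0.13). Without aged mouse 3 it held with the removed direction in the model (0.049) and was lost without that term (0.059). Itgb2 and Itgam encode the chains of complement receptor 3, which binds a C3 fragment and marks myeloid cells. Itgb2 was at 3.22, 4.31 and 4.29 CPM in the young and at 7.99, 5.41 and 6.69 CPM in the aged mice (log2 fold change 0.74, standard error 0.19, adjusted p = 0.063), without overlap, and passed with the replicate block (adjusted p = 0.049). Itgam had a log2 fold change of 0.48 (adjusted p = 0.28), and its groups overlapped. Lrp1, a partner of calreticulin with the highest mean CPM of the list, had -0.03 (adjusted p = 0.81).

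Among 14 measured regulators, 0 were called, with 3 lower and 0 higher at an unadjusted p under 0.05. Cd55, which breaks up convertases, was at 7.94, 7.58 and 7.67 CPM in the young and at 5.47, 6.10 and 5.75 CPM in the aged mice (log2 fold change -0.41, adjusted p = 0.18). The groups of Cd55 did not overlap. Csmd1, a neuronal membrane protein that restrains complement, had a log2 fold change of -0.14 (adjusted p = 0.28). Clu, an astrocyte product that binds the terminal complex, had the highest mean CPM of the list at 951 and a log2 fold change of -0.05 (adjusted p = 0.66).

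**Figure D4:**
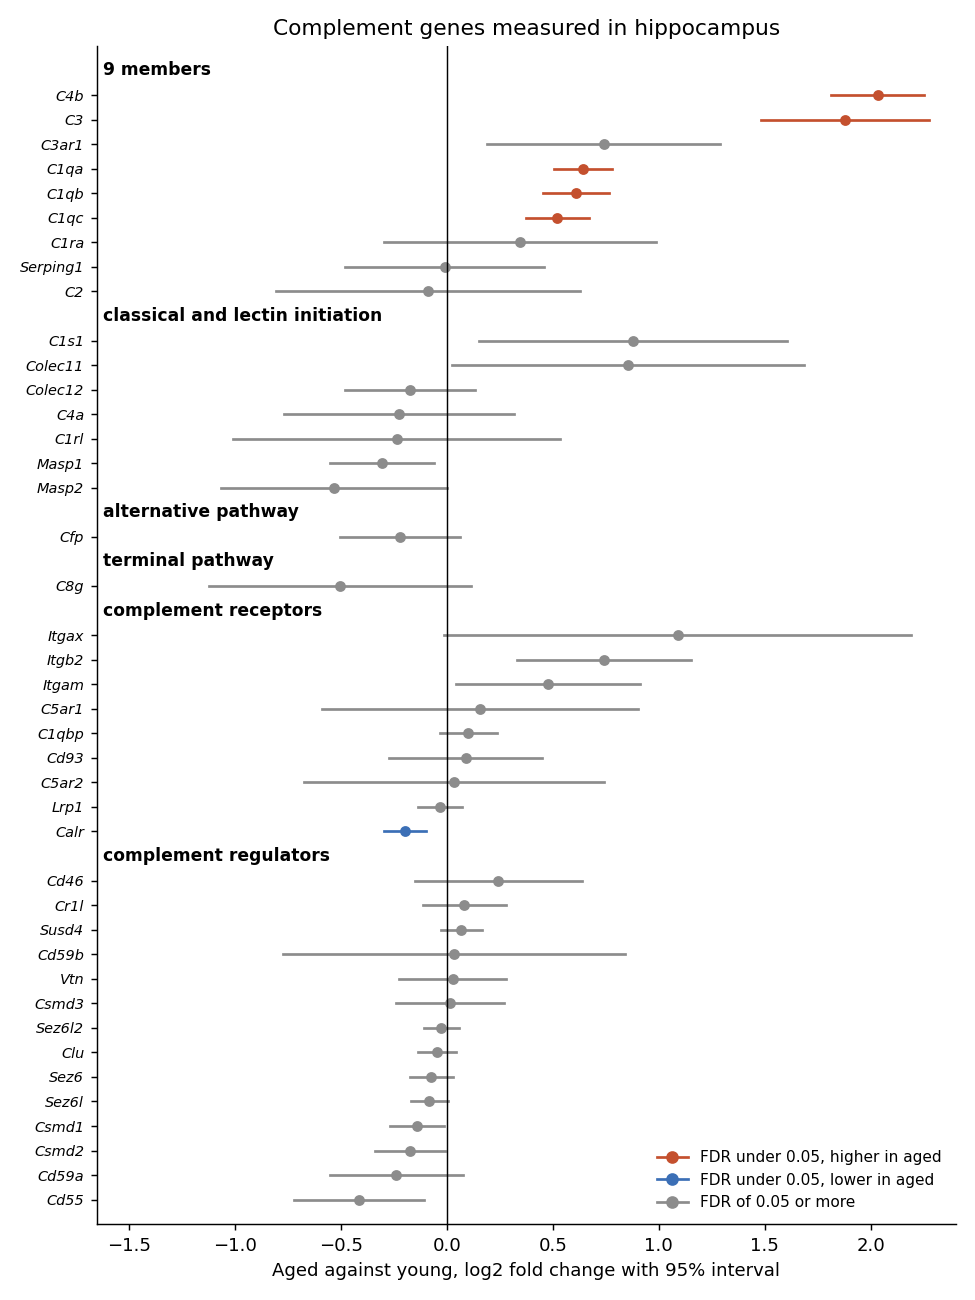
Log2 fold change of aged against young mice with its 95% interval for the 9 members and 32 further complement genes, grouped by role. Orange marks the 5 members that rose past an FDR of 0.05, blue marks Calr, which fell, and grey marks the others.

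Genes that share only the C1q domain gave no rise past the threshold. Of 18 measured of 26 listed, 0 rose and 1 fell, Col8a2 (log2 fold change -0.74, adjusted p = 0.0048), a collagen that the choroid plexus also makes, whose call was lost without young mouse 1 (adjusted p = 0.056), and without aged mouse 3 with the removed direction in the model (0.39) but not without that term (0.015). Col8a1 had a log2 fold change of -0.95 (adjusted p = 0.11). Of 11 choroid plexus markers, 9 were lower and 0 higher in the aged mice (median log2 fold change -1.51), with a mean of 4.70 to 5.01 log2 CPM in the young and 2.57 to 4.35 log2 CPM in the aged mice, and without aged mouse 3 the number called was 0 with the removed direction in the model and 5 without it. Their part in the values of the members was not tested.

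Of 20 factors and signal transducers known for the control of complement genes, 1 rose and 0 fell. Irf8, a factor of microglia and macrophages, was at 4.40, 5.36 and 5.20 CPM in the young and at 7.54, 7.81 and 8.21 CPM in the aged mice (log2 fold change 0.65, standard error 0.15, adjusted p = 0.043). The call of Irf8 was lost in 5 of the 6 fits with a library left out, with adjusted p up to 0.56 without aged mouse 3, which was 0.11 with the removed direction out of the model. Cebpa, a C/EBP factor, had a log2 fold change of 0.35 (adjusted p = 0.057). Spi1, which encodes PU.1, had 0.26 (adjusted p = 0.55), Stat3 had 0.15 (0.25) and Rela, an NF-kB subunit, had 0.16 (0.36), all 3 chosen for the motifs above after their values were seen.

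Of 11 astrocyte markers, 1 rose and 0 fell. It was Gfap, an intermediate filament of reactive astrocytes, at 466, 509 and 504 CPM in the young and at 691, 674 and 703 CPM in the aged mice (log2 fold change 0.49, standard error 0.043, adjusted p = 3.3e-05). The mean of the list was 7.59 to 7.64 log2 CPM in the young and 7.69 to 7.71 log2 CPM in the aged mice. The part of astrocytes in the values of C4b and C3 was not tested. Of the other lists, 1 of 10 oligodendrocyte markers rose (Mobp, 0.27, with 0 to 3 called when a library was left out). Neurons (8 measured), endothelium (8) and blood (5) gave 0 calls. Each of these had 3 at an unadjusted p under 0.05 in limma, against 2485 of the 16703 genes.

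Over the 6 libraries, the genes outside the members whose log2 CPM followed C4b most closely, among 15437 with a mean of at least 1 CPM, were Itpripl2, Pcdhb9, Gm28661, Cabp1 and Ubb-ps, with Pearson's r of 0.998 to 0.999. Of these 5, Pcdhb9, a clustered protocadherin with close paralogs, rose (log2 fold change 0.85, adjusted p = 2.9e-04). For C1qa they were Git1, Oprk1, Gm14327, Laptm5 and Pcdhb11, with r of 0.996 to 0.999. Of these, Laptm5, a lysosomal protein of microglia and blood cells, rose by 0.45 on the log2 scale (adjusted p = 0.0025), Pcdhb11 by 0.63 (0.046) and Git1 by 0.16 (0.040). Likeness over 6 libraries in 2 groups mostly reads the difference between the groups, and the size of the change does not enter it.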

How the data were processed

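Hippocampal RNA of 6 male C57BL/6 mice was analysed, grouped by the ages in the labels (3 young, 3 aged). The authors' tools, per the submitters' notes, were Trim Galore 0.6.6, STAR 2.7.8a and edgeR 3.32.1 with the build mm39, and the methods name uniquely mapped reads and an option that removes unwanted variation. The authors deposited log2 CPM values, 1 column per library. The authors also deposited their own comparison, with log2 fold changes, a likelihood ratio score and p-values with FDR, which were not used here.

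Converted back from logarithms, they gave whole numbers to within 5.8e-09, with totals of 15238190 to 17548247, and lacked 1 direction of variation to within rounding (a ratio of 0.986 over 1791 genes). They are thus adjusted counts, not reads. limma 3.58.1 (R 4.3.3) was fitted to the log2 CPM with a variance trend and 2 terms, age and the direction removed (residual df 3, prior df 12.3), two-sided, with Benjamini-Hochberg adjustment over 16703 genes and thresholds of 0.05 and 1.5-fold. The correlation of the removed direction with age was -0.021, near 0 by construction where a factor is estimated within groups. A factor related to age cannot be told apart from age here. The p-values rest on the spread of the adjusted values (3 residual df), moderated by a variance trend over all genes (12.3 prior df). They do not measure the full spread between mice. The steps were tested on simulated data, where changed genes were recovered with few false calls for a factor within the groups, and most calls were false for a factor related to age.

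The members and lists were chosen with earlier results of these data known. Named genes are all members, called genes of the complement lists, the 2 of smallest p and the highest in level of each role list, the called genes and the 2 of smallest p of other lists (not all printed, and some list genes are not reported here, so that the marker mean set beside C1q rests on 4 of the 5 markers planned), and the 5 closest to C4b and to C1qa. C4a, Masp2, Colec11 and Itgam, like Spi1, Stat3 and Rela, fall outside these rules and were named after their values were seen. Transcript lengths came from GENCODE vM21 and promoters from RefSeq (GRCm38.p6), with 5 of 9 members matched. Alternatives were other scalings, filters, pseudocounts and models, and each library left out. The fits with a library left out use values adjusted over all 6 libraries, so the omitted mouse still bears on the values that remain. With aged mice 2 and 3 averaged as 1 sample, 5 members were higher.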

Additional observations from a re-analysis of the deposited data

How the results depend on the processing

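The 5 members that rose kept their direction in each of the 15 alternatives and their call in 69 of 75 fits. Without a variance trend limma had 1.75 prior degrees of freedom and called 0 of the 16703 genes in either direction, hence 0 members, 0 of them by 1.5-fold and 0 of the other complement genes (1881 genes and 6 members at an unadjusted p under 0.05), with adjusted p of 0.11 for C3, 0.12 for C4b, 0.14 for C1qa, 0.16 for C1qc and 0.20 for C1qb. The remaining loss was C1qc without aged replicate 3, with the removed direction as a term. Without that term and that replicate C1qc kept its call (0.51, adjusted p = 0.0033). No member became called in any alternative.

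Over all genes, 200 were higher and 131 lower. Leaving the removed direction out of the model gave 319 and 204. They were 59 to 184 and 22 to 116 with a library left out. With no such term and no aged replicate 3, an alternative chosen after seeing the data because the removed direction is then related to age (r = -0.75), they were 99 and 61, and 0 other complement genes were lower. With the replicate block, 224 genes were lower and 1 other complement gene was higher. Correlations of deviations were 0.14, -0.24 and -0.46 for same-numbered mice. The removal of 1 direction binds such correlations, so they cannot show whether the replicate numbers pair the mice. The block changed no call of a member. The largest such correlation between the groups was 0.83, for young mouse 2 and aged mouse 3. These mice have the largest weights of their groups in the removed direction, -0.252 and 0.748, with opposite signs. The removal ties their deviations together, so this correlation cannot be read as a link between the 2 mice. The number of other complement genes called lower ran from 0 to 1 with a library left out.

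With a library left out, the log2 fold change ran from -0.49 to 0.69 for C1ra, from -0.46 to 0.17 for C2, from -0.93 to 0.30 for Serping1, from -0.16 to 1.22 for C1s1, from -0.112 to 0.018 for Lrp1 and from -0.093 to 0.032 for Clu, and none of these genes passed the threshold in any of these fits. The only value of C1ra, C1s1 and Clu against the main sign is the one without aged replicate 3, and with no removed direction term as well they were 0.24, 0.73 and -0.037, Serping1 was -0.13 and C3ar1 was 0.81. For C2, Serping1 and Lrp1 the direction depended on which library was left out. C1ra, C2 and C3ar1 lie at 13 to 47 adjusted counts per library, which limits what can be detected.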
